A study of Mus musculus with 4 samples.

Results

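The Ly6 surface antigens and Thy1 were examined in sorted double-positive thymocytes, which carry CD4 and CD8 together and are the stage at which T cells are selected. Every probe set whose only gene symbol in the platform annotation was Ly6c1, Ly6a, Ly6d, Ly6e, Ly6k, Ly6g6c, Ly6g6d or Thy1 was taken. This gave 8 of the 45037 probe sets on the array. They represent 7 of the 8 genes, of 17097 genes that could be named in all, with 2 probe sets for Ly6k and 1 for each of the others. No probe set carried Ly6a as its only symbol, so Ly6a is not analysed here.

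The arrays came in 2 groups of 2. One group was labelled WT and the other hCD2-iCre x Gfi1fl/fl, and both were of strain C57BL/6, with cells sorted from the thymus by flow cytometry. In the second group a transgene with CD2 regulatory sequences, active in lymphocytes, drives the recombinase iCre in mice whose floxed Gfi1 gene it can delete, and Gfi1 encodes a zinc-finger transcriptional repressor. The labels do not describe the WT mice as carrying iCre, and they give no age and no word on pooling, so an effect of the recombinase itself cannot be told apart from that of the floxed gene. Nor do they state that each replicate was a different mouse: a p-value here reflects how far these arrays spread, which may be technical, and the number of arrays limits the precision. The series design asks how the transcriptome of these cells differed between the genotypes.

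Values are RMA signals per probe set on a log2 scale, so a difference of 1 is a doubling of signal, and the array medians lay between 3.53 and 3.55. Array signals of different probe sets are not comparable as transcript amounts, and each probe set is therefore compared only with itself across arrays. Double-positive identity was visible under both labels: all 11 measured double-positive markers were well above the array medians, Rag1 lay between 12.54 and 12.66, and the mean over the 11 lay between 10.50 and 10.85. The targeted gene went against its label. The Gfi1 probe set gave 10.17 and 10.08 on the WT arrays and 11.47 and 11.32 on the arrays labelled hCD2-iCre x Gfi1fl/fl (limma, adjusted p = 0.00976), a call lost without WT replicate 1 or 2 (adjusted p = 0.0526 and 0.0683). A probe set outside the deleted part checks nothing about the label, and its position is not given in the sources used here. Directions below are therefore between labelled arrays, called knockout-labelled and wild-type-labelled.

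Ly6 proteins are small, cysteine-rich surface proteins built on the three-finger Ly6/uPAR fold, and most are held in the outer membrane leaflet by a glycosylphosphatidylinositol (GPI) anchor. Thy1, an immunoglobulin-fold protein with the same kind of anchor, is the classic surface marker of mouse thymocytes and T cells. Several Ly6 antigens mark stages of lymphocyte development or rise with activation and interferon, and Ly6C is carried by memory and some naive CD8 T cells and by inflammatory monocytes. Most genes of the family lie in a cluster on mouse chromosome 15, while Ly6g6c and Ly6g6d lie in the MHC class III region of chromosome 17 and Thy1 lies elsewhere.

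Of the 8 genes, 3 had entries in the RefSeq promoter table (GRCm38.p6). The sequence upstream of Ly6c1 is shown because Ly6c1 was the gene that differed, that of Ly6c2 because it is the close copy from which a Ly6c1 probe set may also draw signal, and that of Ly6g6c because it is a member that was not called. Each run ends at the base before the outermost RefSeq transcript start, reads 5′ to 3′ on the gene's strand, and has in capitals every match on either strand to AATC, the core of the Gfi1 site (GATT in reverse), to TAAACA, a forkhead core (TGTTTA in reverse), or to an interferon response element (GAAA, any 2 bases and GAAA, or TTTC, any 2 bases and TTTC).
Ly6c1, chr15:75048921-75049087, - strand: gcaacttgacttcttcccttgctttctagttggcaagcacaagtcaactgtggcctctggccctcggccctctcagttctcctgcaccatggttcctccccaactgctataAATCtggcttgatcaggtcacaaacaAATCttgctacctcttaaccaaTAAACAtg
Ly6c2, chr15:75112067-75112221, - strand: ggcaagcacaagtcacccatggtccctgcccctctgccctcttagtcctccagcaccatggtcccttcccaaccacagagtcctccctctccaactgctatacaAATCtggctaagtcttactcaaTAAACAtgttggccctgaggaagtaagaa
Ly6g6c, chr17:35067075-35067324, + strand: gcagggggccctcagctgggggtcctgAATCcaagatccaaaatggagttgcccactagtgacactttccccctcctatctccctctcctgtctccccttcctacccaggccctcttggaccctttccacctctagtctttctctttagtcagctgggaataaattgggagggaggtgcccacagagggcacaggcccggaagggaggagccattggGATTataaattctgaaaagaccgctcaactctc

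The 167 bases upstream of Ly6c1 held 2 matches to AATC and 1 to TAAACA, the latter ending 2 bases before the end of the run. The 155 bases upstream of Ly6c2 held 1 of each, and the 250 upstream of Ly6g6c held 2 matches to AATC and none to the forkhead core. No match to the interferon element was in these windows, and no matches overlapped. In the first 167 bases of the 32851 promoter entries of the table, AATC was present in 56.8%, TAAACA in 8.93% and the interferon element in 2.09%. Those bases were counted from each entry's upstream end. They need not end at a transcript start as the Ly6c1 window does, so the shares are a rough background. These are matches of letters only. A global alignment of the Ly6c1 and Ly6c2 windows had 188 columns, of which 134 held a base of both. Of those 134, 99 (73.9%) were identical, and the remaining columns were gaps in either window.

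Ly6c1 was the family member with a clear difference between the labels. Ly6c1 encodes a form of the GPI-anchored antigen Ly6C, and its neighbour Ly6c2 encodes another. Its probe set gave 4.76 and 4.91 on wild-type-labelled replicates 1 and 2 and 8.90 and 8.48 on knockout-labelled replicates 1 and 2. Both knockout-labelled arrays were high and both wild-type-labelled arrays low, with a gap of 3.57 between the nearest arrays. The difference was 3.86 ± 0.26 (SE, n = 2 arrays per label; 95% interval 3.24 to 4.48), a 14.5-fold difference in signal, and Ly6c1 rose in limma's test over all 45037 probe sets (adjusted p = 0.00165). It was the 41st largest of 299 increases called. RNA of a sorted population was measured, so a few cells with much Ly6c1 RNA and many cells with a little cannot be told apart. Its near-identical neighbour Ly6c2 had no probe set with a single symbol, and signal of Ly6c1 and Ly6c2 cannot be told apart here.

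Among the 8 member probe sets, 1 was called higher, 0 were called lower and 7 did not pass the test. Of all probe sets, 0.766% were called in either direction, made up of 0.664% called higher and 0.102% called lower. The members were chosen with earlier results of these data known, so their counts are a description only. At an unadjusted limma p under 0.05 there were 3 member probe sets, those of Ly6c1, Ly6d and Ly6g6c (1 of them lower), against 7.64% of all probe sets. The median difference over the members was -0.003, against -0.01 over all probe sets. The groups did not overlap for these same 3 member probe sets, against 34.7% of all probe sets, so groups that do not overlap are common on these arrays and carry no weight alone.

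**Figure D1:**
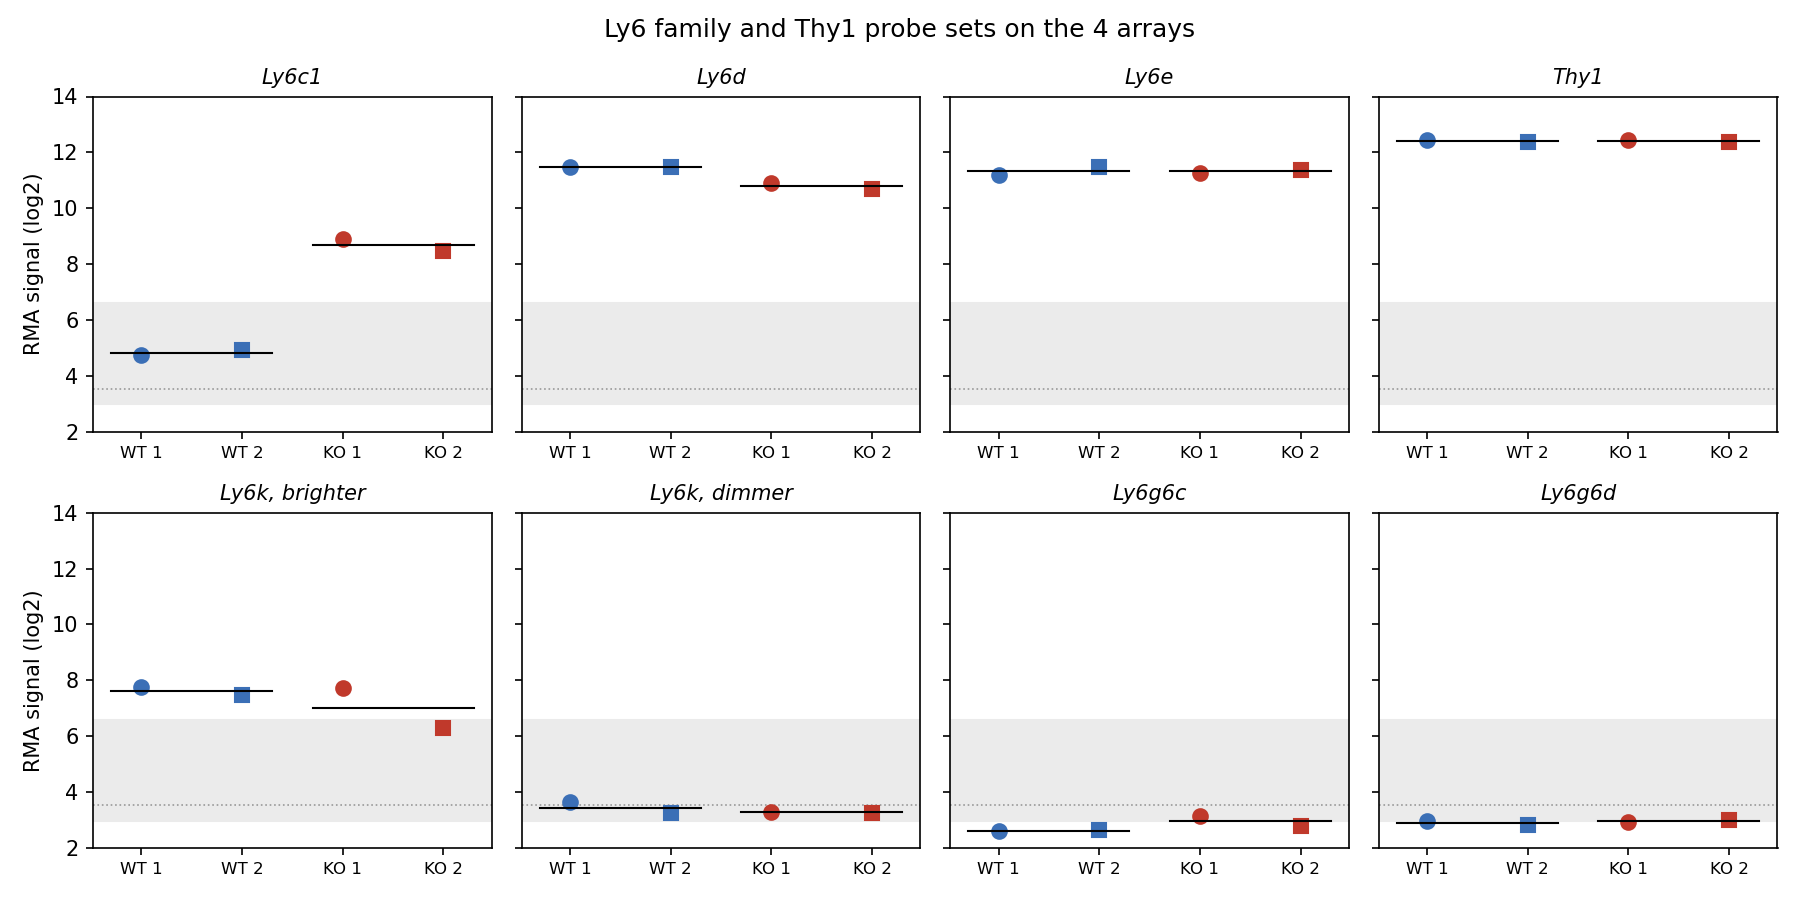
RMA signal (log2) of the 8 member probe sets on each of the 4 arrays, with wild-type label (WT) in blue, knockout label (KO) in red, circles for replicate 1, squares for replicate 2 and a black line at each label's mean. The grey band spans the quartiles of all probe sets and the dotted line their median. Ly6c1 moves from 4.76 and 4.91 to 8.90 and 8.48, Thy1 and Ly6e lie level across the arrays, and the brighter Ly6k probe set is low on knockout replicate 2 alone.

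Ly6d, the antigen ThB of B-lineage progenitors, thymocytes and stratified epithelium, was lower on both knockout-labelled arrays but did not pass the test. Its probe set gave 11.47 on each wild-type-labelled array and 10.89 and 10.68 on the knockout-labelled arrays. The groups were 0.58 apart at their nearest arrays, which is more than the 0.21 between the knockout-labelled arrays. The difference was -0.69 ± 0.13 (SE, n = 2 per label; 95% interval -0.99 to -0.39; limma, unadjusted p = 0.000963, adjusted p = 0.0906), a 1.61-fold lower signal. Leaving out each array in turn kept it between -0.79 and -0.58, with adjusted p between 0.0601 and 0.421.

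Markers of the other cells that carry Ly6d were read beside it. Of 13 measured markers of thymic and squamous epithelium, 0 were called by limma (4 at an unadjusted p under 0.05), and 7 lay below the array median on all 4 arrays. The ordinary t statistic also called 0. It called only 1 of all 45037 probe sets, so a count of 0 by it carries no weight here or below. The list's mean signal was 4.06 to 4.28 on the wild-type-labelled arrays and 4.34 to 4.55 on the knockout-labelled arrays, and the part of epithelial cells in the Ly6d values was not tested. The 4 at that p were Epcam, Cldn4 and Krt10, which had the highest differences of the list, and Krt8. Epcam, an epithelial adhesion molecule, gave 6.89 and 6.06 against 8.63 and 7.69 (limma, adjusted p = 0.215). Cldn4, a tight junction claudin, gave 7.91 and 7.12 against 9.05 and 8.50 (0.270), and Krt10 gave 6.93 and 6.82 against 7.94 and 7.24 (0.631). Krt8 differed by -0.30 (0.476), and Krt5 and Krt14, the keratins of basal epithelium, lay between 2.89 and 3.18 on all arrays. Of 6 measured B cell markers 0 were called by limma (1 at an unadjusted p under 0.05) and 0 were called by the ordinary t statistic. Their means were 3.86 to 4.08 under the wild-type label and 3.68 to 3.90 under the knockout label. The one below that p was Cd79b, a chain of the B cell receptor, with 8.26 and 7.88 against 7.41 and 6.28 (limma, adjusted p = 0.416). The part of Cd79b-expressing cells in the Ly6d values was not tested. Dntt, the terminal transferase gene of the double-positive list, differed by a like amount, -0.69 ± 0.10 (SE, n = 2 per label; limma, adjusted p = 0.0381), a call lost without WT replicate 1 or 2 (adjusted p = 0.135 and 0.260) and without hCD2-iCre x Gfi1fl/fl replicate 2 (0.0645).

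Ly6e and Thy1, both strong thymocyte surface antigens, showed no detectable difference. Ly6e, also known as thymic shared antigen TSA-1 and inducible by interferon, gave 11.19 and 11.47 under the wild-type label and 11.25 and 11.38 under the knockout label. The knockout-labelled values lay inside the range of the others. The difference was -0.01 ± 0.14 (SE, n = 2 per label), and its 95% interval of -0.33 to 0.31 leaves out a change of the size seen for Ly6c1 in either direction. The Ly6e probe set carries the ending s_at, by which the array's maker marks probes that can match more than a single transcript. Thy1 gave 12.45 and 12.38 under the wild-type label and 12.45 and 12.38 under the knockout label. Replicates with the same number had the same value to 2 decimals, and the difference was 0.01 ± 0.08 (SE, n = 2 per label; 95% interval -0.19 to 0.20). RMA compresses differences at the top of its range, where Thy1 lies, so these intervals hold for signal and not for RNA amount.

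Ly6k, a GPI-anchored Ly6 protein best known from testis and sperm, was read by 2 probe sets that did not behave alike. The brighter one gave 7.75 and 7.49 under the wild-type label and 7.72 and 6.31 under the knockout label. Knockout-labelled replicate 1 lay among the wild-type-labelled arrays and replicate 2 lay below all the others, so the groups overlap. The difference of -0.61 ± 0.44 (SE, n = 2 per label; limma, adjusted p = 0.884) rested on that array: it was -1.32 without hCD2-iCre x Gfi1fl/fl replicate 1 and 0.10 without replicate 2. The dimmer probe set gave 3.63 and 3.25 against 3.29 and 3.27, close to the array medians, and differed by -0.16 ± 0.16 (SE, n = 2 per label). The mean of 15 cell cycle genes, picked after the data were seen and so given as a description only, was 8.04 and 9.94 on knockout-labelled replicates 1 and 2 and 8.81 and 9.46 under the wild-type label. The part of cycling cells in the Ly6k values was not tested.

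Ly6g6c and Ly6g6d, Ly6 genes of the MHC class III region with little known expression in T cells, lay at the bottom of the scale. Ly6g6c gave 2.59 and 2.63 under the wild-type label and 3.14 and 2.77 under the knockout label, all below the array medians. The knockout-labelled values were the higher ones, by 0.14 at the nearest arrays, and differed from each other by 0.37. The difference of 0.34 ± 0.12 (SE, n = 2 per label; limma, adjusted p = 0.525) was 0.53 without hCD2-iCre x Gfi1fl/fl replicate 2 and 0.16 without replicate 1. Ly6g6d gave 2.95 and 2.84 against 2.94 and 3.01, with overlapping groups and a difference of 0.08 ± 0.09 (SE, n = 2 per label). A fall was not detectable at such signals, and no detection calls were used.

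**Figure D2:**
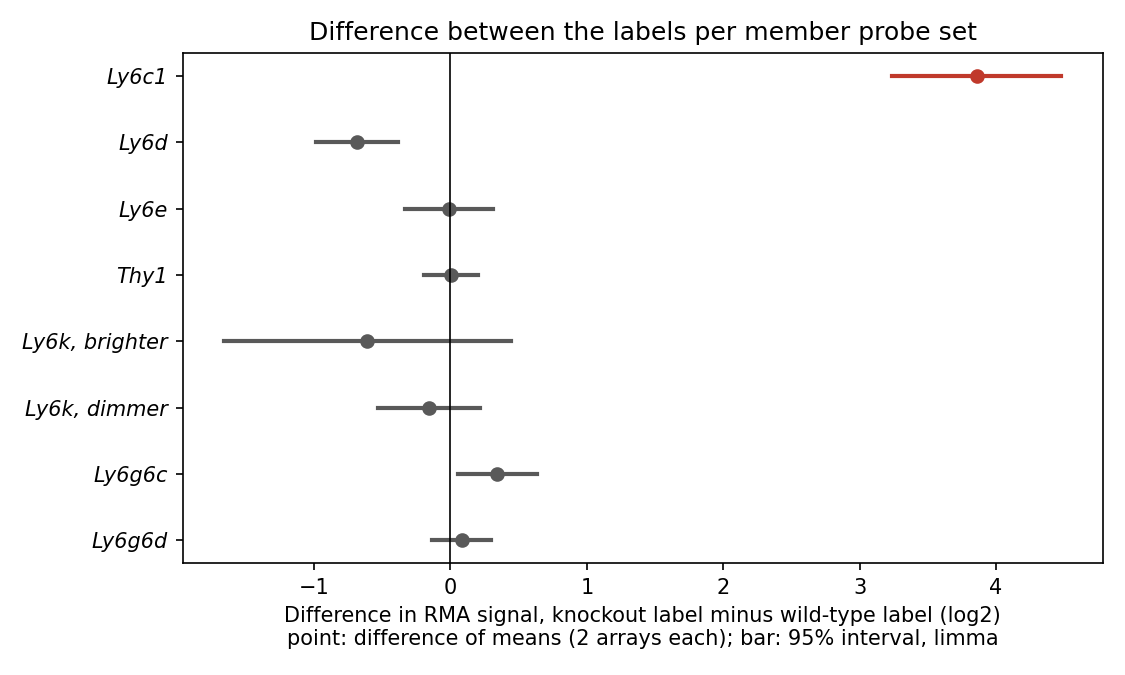
Difference in log2 RMA signal, knockout label minus wild-type label, for each member probe set, with points for the difference of means (2 arrays per label) and bars for limma's 95% interval. The Ly6c1 interval runs from 3.24 to 4.48 (red, called). The Ly6d interval runs from -0.99 to -0.39 without a call after adjustment over all probe sets, and that of the brighter Ly6k probe set is the widest.

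The Ly6 cluster on chromosome 15 did not move as a block. In RefSeq gene order (assembly GRCm38.p6), 22 protein-coding genes run from Ly6d to Ly6h, and 12 of them had a named probe set. Ly6c1 was the single gene called among the 12, where 1.01% of all genes were called by their brightest probe set. The nearest measured genes on its sides were Ly6i, which differed by -0.11 ± 0.20, and Ly6g2, which differed by -0.20 ± 0.11 (SE, n = 2 per label; limma, adjusted p = 0.998 and 0.799). Ly6i gave 3.94 and 3.43 against 3.56 and 3.59, and Ly6g2 gave 3.36 and 3.32 against 3.17 and 3.11. Both were near the array medians, where a fall could not have been detected but a rise like that of Ly6c1 could. Ly6a, Ly6c2, Ly6a2 and Ly6g, which lie between these 2 genes, had no named probe set. On chromosome 17, the segment from Ly6g6c to Ly6g5b holds 7 genes, of which 4 were measured, with differences from -0.24 to 0.34. Of the 4, 0 were called by limma (1 at an unadjusted p under 0.05, Ly6g6c) and 0 were called by the ordinary t statistic.

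**Figure D3:**
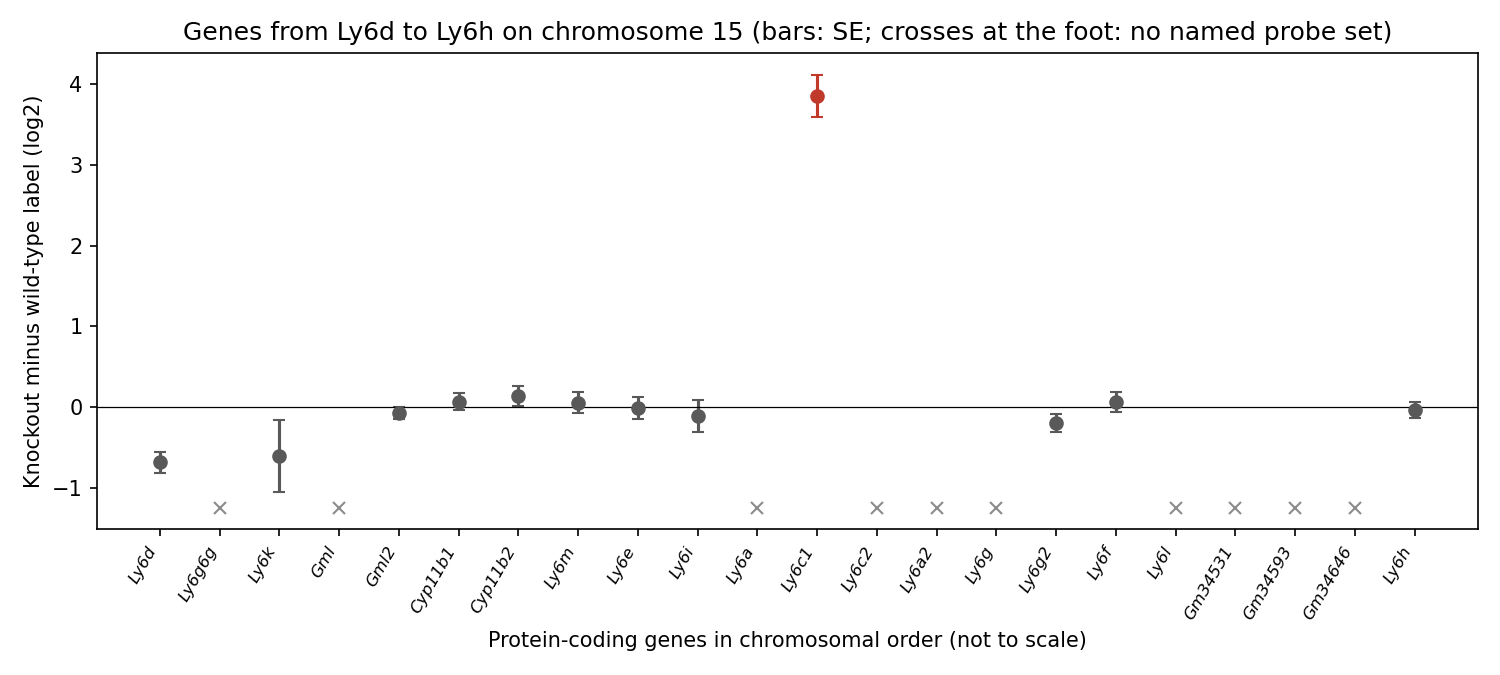
Difference in log2 RMA signal, knockout label minus wild-type label, of the 22 protein-coding genes from Ly6d to Ly6h on chromosome 15 in their order, not to scale, with bars for the SE of limma (2 arrays per label). Crosses at the foot mark genes with no named probe set. Ly6c1 at 3.86 stands alone (red, called), and the other 11 measured genes lie between -0.69 and 0.13.

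Beyond the members, 25 of 38 listed genes of the Ly6/uPAR fold were measured, and 17 of these lay below the array median on all 4 arrays. Of the 25, 0 were called by limma (4 at an unadjusted p under 0.05) and 0 were called by the ordinary t statistic. The median difference was -0.01 against -0.02 over the brightest probe sets of all 17097 genes. The largest differences were those of Lypd6b and Plaur. Lypd6b, a Ly6/uPAR protein related to modulators of nicotinic receptors, gave 8.92 and 9.17 under the wild-type label and 8.03 and 6.40 under the knockout label. Both knockout-labelled arrays were lower and replicate 2 the lowest, and the difference of -1.82 ± 0.49 (SE, n = 2 per label; limma, adjusted p = 0.283) became -2.64 with a call without hCD2-iCre x Gfi1fl/fl replicate 1 (adjusted p = 0.00243, within a range of 0.00243 to 0.543 when each array was left out) and -1.01 without replicate 2. Lypd6b and the brighter Ly6k probe set were thus both lowest on knockout-labelled replicate 2. Plaur, the urokinase receptor, gave 3.40 and 3.23 against 4.35 and 3.92, a difference of 0.82 ± 0.20 (SE, n = 2 per label; limma, adjusted p = 0.210).

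The machinery that makes and attaches the GPI anchor was measured by 24 of 30 listed genes. None of the 24 was called by limma (1 at an unadjusted p under 0.05) or by the ordinary t statistic. The median difference was -0.07 and 18 of the 24 differences lay below 0. The largest were 0.72 for Pgap1, which removes an acyl chain from the anchor (4.30 and 5.34 against 5.34 and 5.74; limma, adjusted p = 0.762), and -0.59 for Pigg, an ethanolamine phosphate transferase of the anchor (3.62 and 4.24 against 3.49 and 3.19; adjusted p = 0.601). Both rested on the wild-type-labelled arrays: without WT replicate 1 they were 0.20 and -0.90, and without WT replicate 2 they were 1.24 and -0.28.

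Other GPI-anchored surface proteins gave 2 increases among 21 measured genes and 0 decreases, with a median of 0.07. Over all genes, 0.871% were called higher by their brightest probe set. This list too was chosen with earlier results of these data known, so its share is a description only. Rgmb, a bone morphogenetic protein co-receptor, gave 3.08 and 3.40 against 8.05 and 7.89, a difference of 4.73 ± 0.25 (SE, n = 2 per label; limma, adjusted p = 0.00068), which was 2.52 with the mean of all its probe sets. Gfra1, the GPI-anchored receptor chain for the neurotrophic factor GDNF, gave 4.75 and 5.23 against 9.0 on both knockout-labelled arrays, a difference of 4.01 ± 0.26 (SE, n = 2 per label; limma, adjusted p = 0.0015). With the mean of all its probe sets the Gfra1 difference was 3.03. Rgmb and Gfra1 both rose with Ly6c1. The Ly6c1 difference of 3.86 ± 0.26 overlapped that of the brightest Gfra1 probe set within the SE. Cd24a and Cd52, GPI-anchored antigens that thymocytes carry in quantity, differed by -0.03 each and were not called. Sema7a, a GPI-anchored semaphorin, gave 8.61 and 8.37 against 8.13 and 7.58 (limma, adjusted p = 0.632).

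Ly6C and Ly6e belong to the antigens that interferon can raise, and interferon response genes were read beside them. Of 29 measured, 6 rose, 0 fell and 23 did not pass. At an unadjusted limma p under 0.05 there were 21 of the 29, the 6 that rose among them. The median difference was 0.90, and 26 of 29 lay above 0 and 3 below, namely Ifit2, Ifnar2 and Stat2 at -0.35, -0.33 and -0.08. Over all genes, 0.871% were called higher by their brightest probe set. The interferon list was chosen with earlier results of these data known, so its share is a description only. Oas1g, an oligoadenylate synthetase, gave 4.63 and 4.23 against 7.03 and 6.91, a call lost without WT replicate 2 (adjusted p = 0.0512). Ifi27l2a, Rsad2, Ifit1, Usp18 and Rtp4 rose by 3.73, 2.91, 2.79, 2.72 and 2.70. The calls of Usp18 and Rtp4 were lost without limma's intensity trend (adjusted p = 0.0786 and 0.0557), and with the mean of all its probe sets Rtp4 differed by 1.54. Beside them stand the differences of 3.86 for Ly6c1 and -0.01 for Ly6e. The members and this list share the same 4 arrays, and the part of interferon signalling in the Ly6c1 values was not tested.

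Ly6C is also a marker of mature T cells, and of 19 measured genes of single-positive maturation 6 rose, 0 fell and 13 did not pass. Over all genes, 0.871% were called higher by their brightest probe set. The maturation list was chosen with earlier results of these data known, so its share is a description only. The list's median was 0.48, with 13 differences above 0 and 6 below, among them Gimap5, Gimap6 and Cd5 at -0.56, -0.42 and -0.42 (limma, adjusted p = 0.704, 0.612 and 0.706). S1pr1 and Ms4a4b, also not called, differed by 1.43 and 1.07 (limma, adjusted p = 0.0501 and 0.0771). At an unadjusted limma p under 0.05 there were 11 of the 19, the 6 that rose and Gimap6 among them. Klf2, a factor of T cell quiescence and migration, Gimap4, Itgb7, Cd53, H2-K1 and H2-D1 were the ones called, with differences of 5.20, 3.92, 2.92, 2.46, 2.03 and 0.92. The call of H2-D1 was lost when any of the 4 arrays was left out (adjusted p between 0.0979 and 0.248), and that of H2-K1 without WT replicate 2 (0.0638). Averaged over all its probe sets, H2-D1 differed by 0.35 and H2-K1 by 1.31, and neither was called (limma, adjusted p = 0.655 and 0.0570). Of the 11 double-positive markers, Dntt alone was called, as lower, and 10 of the 11 differences lay below 0, with a median of -0.22. Cd4, Cd8a and Rag1 differed by -0.23, -0.04 and -0.05, and Themis, a T cell receptor signalling adaptor, by -0.46 (limma, adjusted p = 0.378). The sort for cells with both CD4 and CD8 is meant to remove single-positive cells, and likewise B, myeloid and most innate cells. How far it did so was not tested. The part of maturing cells in the Ly6c1 values was not tested.

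Monocytes and neutrophils are also bright carriers of Ly6C. Of 10 measured markers of these cells and of macrophages, 0 were called by limma (0 at an unadjusted p under 0.05) and 0 were called by the ordinary t statistic. The list's mean signal was 3.33 to 3.58 on the wild-type-labelled arrays and 3.45 to 3.53 on the knockout-labelled arrays. S100a8 and S100a9, abundant calcium-binding proteins of neutrophils and monocytes, gave at most 3.36 on the knockout-labelled arrays, and Csf1r, the receptor of monocytes and macrophages, gave 3.50 and 3.57. Lyz2, the myeloid lysozyme, gave 4.34 and 3.80 against 4.41 and 4.76 (limma, adjusted p = 0.752). The part of myeloid cells in the Ly6c1 values was not tested. Of 7 measured markers of fibroblasts and endothelium 0 were called (limma; 0 at an unadjusted p under 0.05), with 6 differences above 0 and 1 below. Their mean signal was 3.46 to 3.52 on the wild-type-labelled arrays and 3.53 to 3.58 on the knockout-labelled arrays. Pecam1 of that list gave 6.89 and 7.13 against 7.23 and 7.03. The part of fibroblasts and endothelium in the Ly6c1 values was not tested. Of 4 measured plasmacytoid dendritic cell markers 0 were called by limma (1 at an unadjusted p under 0.05) and 0 were called by the ordinary t statistic. All 4 differences lay above 0, and the 1 below that p was Irf8, with 4.01 and 3.91 against 4.63 and 4.78 (limma, adjusted p = 0.277). Ccr9, Pacsin1 and Tcf4 differed by only 0.18, 0.28 and 0.002, and Ccr9 lay between 12.76 and 13.01 under both labels. Of 8 measured genes that mark NK, gamma-delta T or innate lymphoid cells 1 was called higher, Cd163l1 (3.15 and 3.94 against 11.00 and 10.99). Of the 8 differences, 6 lay above 0 and 2 below. The other 7 averaged 3.22 and 3.19 under the wild-type label and 3.54 and 3.47 under the knockout label. Among them 0 were called by limma (3 at an unadjusted p under 0.05) and 0 were called by the ordinary t statistic. Those 3 were Blk, Rora and Klrd1, all higher under the knockout label. Blk gave 3.67 and 3.62 against 5.38 and 4.39, and Rora and Klrd1 differed by 0.47 and 0.24 (limma, adjusted p = 0.265, 0.593 and 0.595). The part of plasmacytoid dendritic or innate cells in the Ly6c1 values was not tested.

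**Figure D4:**
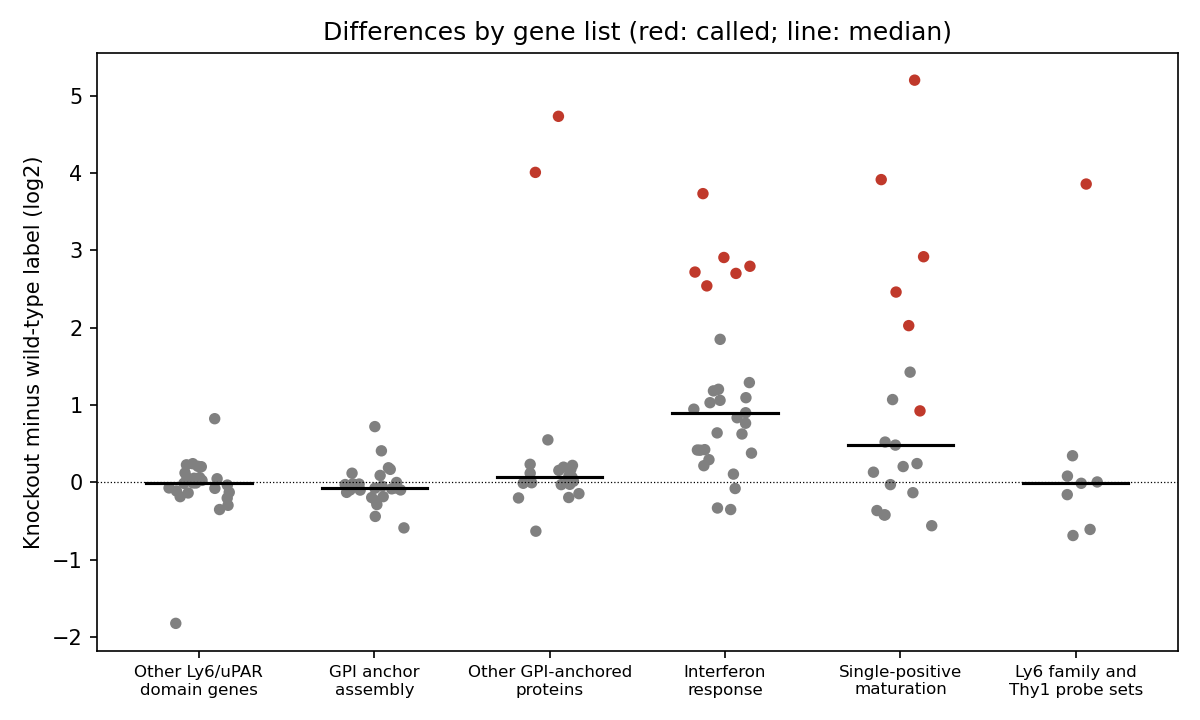
Difference in log2 RMA signal, knockout label minus wild-type label, of every measured gene of 5 lists (brightest probe set) and of the 8 member probe sets, with red points for limma calls at an adjusted p of 0.05 and a black line at each list's median. The medians are -0.01 for other Ly6/uPAR genes, -0.07 for anchor assembly, 0.07 for other GPI-anchored proteins, 0.90 for interferon response, 0.48 for single-positive maturation and -0.003 for the members.

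The genes whose pattern over the 4 arrays was most like that of Ly6c1 were found by the Euclidean distance between signals centred on each gene's mean, among 17096 other genes by their brightest probe sets. Cd7, a surface antigen of T and NK cells, was the closest, with 3.22 and 3.04 against 7.28 and 6.95 and a distance of 0.27. Il6ra, the interleukin-6 receptor chain, followed at 0.36, with 3.26 and 3.56 against 7.72 and 7.46, and its difference of 4.19 was 2.28 with the mean of all its probe sets. Tnfaip1 came next at 0.38, Cdc14b, a phosphatase gene, at 0.41, and the GPI-anchored Gfra1 also at 0.41. The Gfra1 difference of 4.01 was 3.03 with the mean of all its probe sets. With 4 arrays in 2 groups, likeness of this kind reflects mainly the size of the difference between the labels.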

How the data were processed

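Per the labels' protocols, biotinylated cRNA was made from sorted double-positive thymocytes by 3' in vitro transcription and read on 1-colour Affymetrix arrays. The submitters' processing notes name RMA and Affymetrix Expression Console 1.1. Values deposited by the authors are log2 RMA signals per probe set (2.19 to 13.5), by their range and nearly equal quartiles. They were used as they were, without scanner files or detection calls.

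The platform annotation gave 28898 of 45037 probe sets a single gene symbol, 551 several and 15588 none. All 45037 were fitted with lmFit and eBayes of limma 3.58.1 (R 4.3.3), with an intensity trend but without filter or covariate. There were 2 residual degrees of freedom and 5.05 from the prior. Calls were two-sided at an adjusted p of 0.05 (Benjamini-Hochberg, all probe sets). The procedure was run on simulated data with independent arrays and spreads drawn from the fit's own prior. That run cannot show how it behaves where arrays are technical repeats or share a replicate effect. Alternatives were a replicate block, other scalings, filters on the dimmest 30% and 50%, other priors, an ordinary t statistic, 1 value per gene and leaving out each array. Genes of lists were represented by their brightest probe set.

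The members and lists were chosen with earlier results of these data known. Named were all members, Gfi1, Foxo1, up to 6 called genes per list (2 largest where none was called) and the 5 genes most like a called member. Other list and marker genes named were chosen after their values were seen. Foxo1 gave 3.02 and 3.15 against 2.99 and 2.91 (limma, adjusted p = 0.891). Figures were drawn with matplotlib 3.10.9.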

Additional observations from a re-analysis of the deposited data

How the results depend on the processing

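The call of Ly6c1 was kept in 14 of 15 alternatives, with differences between 3.65 and 4.07 and adjusted p between 0.000553 and 0.0120 under limma's moderation. An ordinary t statistic without moderation called 0 member probe sets (Ly6c1 adjusted p = 0.557) and 1 of all probe sets (3080 at an unadjusted p under 0.05). The other 7 member probe sets were called in none of the alternatives fitted. Their sign turned in 2 alternatives for Ly6e, 4 for Thy1 and 1 for each Ly6k probe set. The filters removed Ly6g6c and Ly6g6d, and the stricter one also the dimmer Ly6k probe set. The 345 calls over all probe sets became 205 without the intensity trend, 190 with 1 probe set per gene and 157 with the mean of a gene's probe sets, the last 2 over fewer features. Leaving out each array gave 168 to 368 calls over all probe sets, with 178 without WT replicate 1 and 168 without WT replicate 2, and 1 call higher and 0 lower among the members in each case. These fits take the spread from the other label. Under the other alternatives the counts stayed within 1.5 times. The replicate numbers are shared between the labels without a stated pairing. Deviations of same-numbered arrays from their group means correlated at 0.301, a value that 2 groups of 2 force to be equal for both numbers, so it cannot settle whether the numbers pair the arrays, and the block is given only as an alternative. With the replicate number as a block 272 probe sets were called, 1 of them a member. The block moved the adjusted p of Dntt to 0.0529 and of H2-D1 to 0.0601. Without the intensity trend the calls of Gfi1, Dntt, Cd53, H2-K1 and H2-D1 were lost too (adjusted p = 0.0511, 0.177, 0.0687, 0.0683 and 0.0757), and Dntt was also not called with a robust prior (0.0671) or with the mean of its gene's probe sets in 17097 genes (0.0815). The 2 arrays per label limit what could be detected. So do signals near the array medians for Ly6k's dimmer probe set and below them for Ly6g6c and Ly6g6d.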
